A study of Mus musculus with 2 samples.

Results

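Gene-to-gene loops are chromatin contacts called between a pair of anchors that each hold an end of a protein-coding gene. They were chosen from the medium-setting loop list of replicate 2 by anchor position, span and gene annotation alone: the anchor midpoints had to lie less than 500 kb apart, and each anchor had to contain the first or last base of at least 1 protein-coding gene of the RefSeq annotation of GRCm38.p6, the assembly named mm10. The rule selected 804 of the 5120 loops under 500 kb in a list of 5729, which is 15.7% (95% Wilson interval 14.7 to 16.7%). Of the other loops under 500 kb, 2016 (39.4%) had a gene end at 1 anchor and 2300 (44.9%) at neither. The 804 loops, their spans and their genes are therefore a description of 1 called list, and only measures that the rule did not use were tested.

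The loops came from Hi-C on HPC5, a mouse bone-marrow-derived haematopoietic progenitor line with the Etv6+/+ genotype, grown without a mutant or treated counterpart. In Hi-C, fixed chromatin is cut and religated, so that sequenced junctions report which DNA segments were near each other. The 2 samples are numbered 1 and 2 in their titles, with no word in the labels on independent cultures, and any gap between them may thus be technical. The loop lists hold no expression values, so the progenitor identity of the cells could not be checked against marker genes. Being a single cultured line, HPC5 stands for 1 cell population and not for the mixture found in marrow.

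Loops of this size form when cohesin draws out chromatin until it is halted, commonly at bound CTCF. Promoters also meet other promoters and enhancers, and transcription factors such as YY1 take part in such contacts. A loop that starts and ends at genes can thus mark a contact between promoters, an insulated neighbourhood edge that happens to lie at a gene, or the ends of 1 gene brought together, and a loop list alone does not tell these apart.

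The promoters below show the letters at the best-resolved of these contacts: both anchors were 5 kb wide, both held a gene start, and the loop was found again in replicate 1. The 4 such loops of highest n are shown. Found again means midpoints within 20 kb, and neither Gss nor Cxcl2 below lay at a replicate 1 anchor of its loop. Each sequence is the 250 bases before the start from the RefSeq promoter table of GRCm38.p6, read 5′ to 3′ on the gene's strand. Capitals mark any copy, on either strand, of the ETS core CCGGAA, the GC box GGGCGG, the YY1 core AAGATGG or the CTCF consensus. None of the 3 spelled motifs contains another, and neighbouring GC boxes may overlap, as in Wdr38. Acss2, which encodes cytosolic acetyl-CoA synthetase, lies on the plus strand (chr2:155517793-155518042) and Gss, which encodes glutathione synthetase, on the minus strand (chr2:155592811-155593060). Nr6a1, an orphan nuclear receptor gene (minus, chr2:38926462-38926711), was joined to Wdr38, a WD-repeat gene (plus, chr2:38998059-38998308). Mertk, the gene of a receptor tyrosine kinase that helps phagocytes clear dying cells (plus, chr2:128698665-128698914), was joined to Tmem87b (plus, chr2:128818053-128818302). Pcp2, known from Purkinje cells (minus, chr8:3625548-3625797), was joined to Fcor, a Foxo1 co-repressor gene (minus, chr8:3672392-3672641). The neutrophil chemokine genes Cxcl3 (plus, chr5:90785851-90786100) and Cxcl2 (plus, chr5:90903649-90903898), joined on 10 kb anchors, were added after their values were seen because their products are inflammatory signals.
Acss2: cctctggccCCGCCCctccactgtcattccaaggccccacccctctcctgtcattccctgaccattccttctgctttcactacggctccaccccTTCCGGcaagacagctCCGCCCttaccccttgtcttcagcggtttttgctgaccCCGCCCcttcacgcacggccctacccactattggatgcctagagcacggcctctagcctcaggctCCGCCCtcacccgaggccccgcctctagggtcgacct
Gss: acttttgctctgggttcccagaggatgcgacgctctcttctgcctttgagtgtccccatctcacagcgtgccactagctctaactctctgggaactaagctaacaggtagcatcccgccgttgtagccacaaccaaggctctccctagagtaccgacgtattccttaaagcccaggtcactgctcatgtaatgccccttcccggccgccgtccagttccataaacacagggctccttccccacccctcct
Nr6a1: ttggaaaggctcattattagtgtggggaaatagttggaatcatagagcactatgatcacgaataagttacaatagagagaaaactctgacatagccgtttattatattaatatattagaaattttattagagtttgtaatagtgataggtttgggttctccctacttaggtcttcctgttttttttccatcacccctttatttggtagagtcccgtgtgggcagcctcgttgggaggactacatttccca
Wdr38: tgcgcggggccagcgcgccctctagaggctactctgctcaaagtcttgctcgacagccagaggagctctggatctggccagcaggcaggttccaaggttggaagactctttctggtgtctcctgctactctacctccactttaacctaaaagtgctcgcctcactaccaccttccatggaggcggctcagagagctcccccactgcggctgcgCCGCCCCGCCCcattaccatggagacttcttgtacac
Mertk: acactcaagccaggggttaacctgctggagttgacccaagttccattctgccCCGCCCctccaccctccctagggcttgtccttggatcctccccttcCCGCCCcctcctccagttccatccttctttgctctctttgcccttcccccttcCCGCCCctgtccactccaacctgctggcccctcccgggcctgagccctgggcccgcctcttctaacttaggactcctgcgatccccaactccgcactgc
Tmem87b: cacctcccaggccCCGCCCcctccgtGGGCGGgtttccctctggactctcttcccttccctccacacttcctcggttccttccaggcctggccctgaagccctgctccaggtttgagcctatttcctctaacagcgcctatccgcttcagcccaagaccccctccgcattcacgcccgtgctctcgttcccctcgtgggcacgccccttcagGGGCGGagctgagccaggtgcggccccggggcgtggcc
Pcp2: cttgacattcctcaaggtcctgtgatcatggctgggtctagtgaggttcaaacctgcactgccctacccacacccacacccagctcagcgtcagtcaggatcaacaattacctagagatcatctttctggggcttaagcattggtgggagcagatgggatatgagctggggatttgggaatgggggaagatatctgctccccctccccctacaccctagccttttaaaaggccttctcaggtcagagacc
Fcor: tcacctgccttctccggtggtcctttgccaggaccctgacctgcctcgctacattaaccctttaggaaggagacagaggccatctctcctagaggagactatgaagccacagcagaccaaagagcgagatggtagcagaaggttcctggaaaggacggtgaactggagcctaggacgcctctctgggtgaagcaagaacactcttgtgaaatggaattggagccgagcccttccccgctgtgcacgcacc
Cxcl3: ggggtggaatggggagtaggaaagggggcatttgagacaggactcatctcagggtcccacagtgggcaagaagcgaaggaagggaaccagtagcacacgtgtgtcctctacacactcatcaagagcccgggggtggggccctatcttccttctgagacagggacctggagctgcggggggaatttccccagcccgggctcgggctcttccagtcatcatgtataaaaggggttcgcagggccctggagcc
Cxcl2: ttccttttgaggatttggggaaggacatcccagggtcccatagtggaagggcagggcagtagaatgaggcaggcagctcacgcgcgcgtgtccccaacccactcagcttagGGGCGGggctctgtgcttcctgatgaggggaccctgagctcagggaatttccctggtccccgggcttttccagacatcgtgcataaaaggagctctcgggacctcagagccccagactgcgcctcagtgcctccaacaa

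Acss2 had 1 ETS core and 4 GC boxes in this window, whereas its loop partner Gss had none of the 4 motifs. Mertk and Tmem87b had 3 GC boxes each, Wdr38 had 2 and Cxcl2 had 1. No copy of the 4 motifs was found in the windows of Nr6a1, Pcp2, Fcor or Cxcl3. The GC content ranged from 37.6% at Nr6a1 to 68% at Tmem87b. The partners Mertk and Tmem87b thus shared a motif, while Acss2 and Gss did not. A match or its absence describes these letters and says nothing of binding.

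These 5 loops had the following values of n, the whole number the authors' lists attach to each loop and do not define. Because n rises with anchor width, it was compared only between loops of equal width, except in some rankings that chose the loops named. The Acss2 to Gss loop spanned 75 kb with no gene wholly between the anchors and had n = 31 on 5 kb anchors in replicate 2. Its replicate 1 counterpart had n = 39 on 25 kb anchors, with a right anchor that lay beyond Gss. The Nr6a1 to Wdr38 loop spanned 70 kb with n = 30, and its counterpart had n = 17 on 10 kb anchors. The Mertk to Tmem87b loop spanned 120 kb with n = 30 and a counterpart of n = 22 on 10 kb anchors. Pcp2 and Fcor were 45 kb apart, with n = 28 and a counterpart of n = 23 on 10 kb anchors. Replicate 1 listed 0 loops on 5 kb anchors, so any counterpart of a 5 kb loop was wider. Cxcl3 and Cxcl2 were 120 kb apart, with n = 29 on 10 kb anchors and 36 on 25 kb anchors in replicate 1. The right anchor of that counterpart ended before Cxcl2.

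Gene-to-gene loops were called mainly on wide anchors. At 5, 10 and 25 kb there were 56, 252 and 496 of them, which is 5.71, 11.3 and 25.9% of all loops under 500 kb of those widths. A wider anchor holds more gene ends, so these shares follow partly from the rule itself. Their median spans were 60, 80 and 175 kb at the 3 widths, beside 70, 110 and 200 kb for loops with a gene end at 1 anchor and 95, 130 and 200 kb for loops with none. By span, 24.4% were under 100 kb, 46.6% were from 100 to under 200 kb and 29% were longer. Median n was 18.5, 31 and 67 at 5, 10 and 25 kb, beside 19, 30 and 67 for loops with a gene end at 1 anchor and 19, 30 and 65.5 for those with none. The high-setting list holds loops on 5 and 10 kb anchors alone, and it held 308 of the 804 (38.3%), all those of the narrower widths, beside 2896 of 4316 other loops (67.1%).

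The limit of 500 kb fell in the thin tail of the spans. Just inside it, from 450 to under 500 kb, lay 11 gene-to-gene loops, and just outside, from 500 to under 550 kb, lay 8, with 69 gene-to-gene loops at 500 kb or more in all. The longest inside joined Zranb2 to Srsf11 and Ankrd13c over 475 kb with n = 48, and the nearest outside joined Trim38 to Carmil1 over 500 kb with n = 61.

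**Figure D1:**
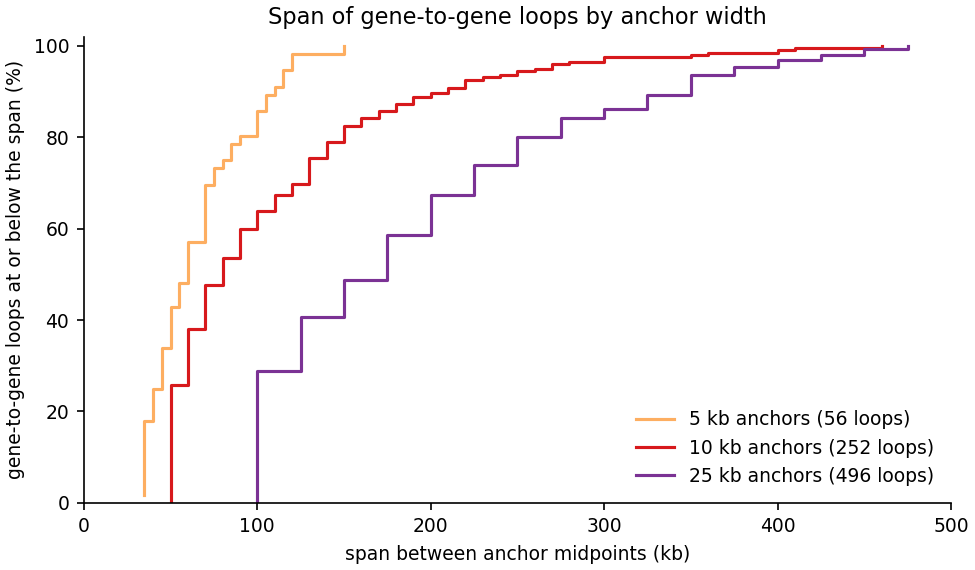
Cumulative share of the gene-to-gene loops, in percent (vertical axis), at or below each distance between anchor midpoints in kb (horizontal axis), with 1 line per anchor width for 56, 252 and 496 loops. The lines reach their medians at 60, 80 and 175 kb.

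The shortest members were contacts within compact gene neighbourhoods. In all, 10 members spanned 35 kb, on 5 kb anchors, and 0 of the 10 were found again in replicate 1. The first 5 by chromosome are described here. Cdc73, a subunit gene of the PAF1 transcription elongation complex, was joined to Glrx2, a mitochondrial glutaredoxin gene, with n = 21. Dedd, a death-effector-domain gene, was joined to the prefoldin subunit gene Pfdn2 and to Klhdc9 with n = 30. Cd52 and Crybg2 were joined to Cep85, Sh3bgrl3 and Ubxn11 with n = 15. Clptm1 was joined to Apoe, the apolipoprotein E gene, and Tomm40, a mitochondrial import pore gene, with n = 18 and 4 genes wholly between the anchors. The remaining loop joined both ends of Creg2 with n = 18. Replicate 1 listed no loop under 50 kb on 10 kb anchors and none under 100 kb on 25 kb anchors, so loops this short could be matched only to longer ones within the 20 kb tolerance.

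At the long end, 11 members spanned 450 kb or more, with 0 to 7 genes wholly between the anchors. Eed, a core Polycomb gene, was joined to Crebzf and Ccdc89 over 475 kb with n = 42 on 25 kb anchors. Cpsf2, a gene of the mRNA 3′ end cleavage machinery, and Ndufb1 were joined to Golga5 over 475 kb with n = 68. Dscc1, a sister chromatid cohesion gene, was joined to Mtbp and Mrpl13 over 460 kb with n = 19 on 10 kb anchors. Pacc1 and Ppp2r5a were joined to Nek2, a centrosomal kinase gene, over 450 kb with n = 33, the first by chromosome of 7 members of that span. Of the 11, the loop from Cog6 to Nhlrc3 and Proser1 (450 kb, n = 57 on 25 kb anchors), named after its values were seen, was found again in replicate 1.

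Fewer gene-to-gene loops were found again in replicate 1 than loops of the other classes. A loop counted as found again when both anchor midpoints lay within 20 kb of those of a replicate 1 loop. This held for 93 of 804 (11.6%, 9.54 to 14%), beside 18.9 percent of all loops under 500 kb, 327 of 2016 loops with a gene end at 1 anchor (16.2%) and 546 of 2300 with none (23.7%). Within anchor widths the members' shares were 14 of 56 at 5 kb (25%), 38 of 252 at 10 kb (15.1%) and 41 of 496 at 25 kb (8.27%). The shares over all loops of those widths were 35.3, 21.4 and 7.52 percent. At 25 kb the share of gene-to-gene loops was thus close to that of all loops, and below it on both narrower widths.

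The gap narrowed when loops of like width and span were compared. With width as stratum, the common odds ratio of being found again was 0.875 (95% interval 0.67 to 1.14) against loops with a gene end at 1 anchor, which did not pass the threshold (exact conditional test, two-sided, adjusted p = 0.338 over 2 comparisons). Against loops without gene ends it was 0.684 (0.525 to 0.885, exact test, adjusted p = 0.00569). With width and span class as strata the odds ratios were 1.05 (0.79 to 1.39) and 0.92 (0.692 to 1.22), both with an adjusted p of 0.728 in the exact test, so the difference from loops without gene ends was lost. Within single widths, only 10 kb anchors gave a difference past the threshold, against loops without gene ends (odds ratio 0.571, 0.383 to 0.834, Fisher's exact test, adjusted p = 0.0146 over 6 tests). Loops share neighbourhoods and are not independent, so these tests cover counting error within 1 pair of lists.

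By span, members of 100 to under 200 kb were found again most often, in 16.8%, against 6.12% of those under 100 kb and 7.73% of those of 200 kb or more. Loops with no gene end had 32.4, 10.3 and 26.6% in the same 3 ranges. The gap between these shares was largest at 200 kb or more, but the ranges pool anchor widths. On 25 kb anchors lay 496 of the 804 members, beside 572 of the 2300 loops with no gene end. The n of found-again members was higher on 25 kb anchors (median 86 against 66 for the others) and nearly equal on 10 kb anchors (30.5 against 31), and at 5 kb the medians were 22.5 and 18.

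**Figure D2:**
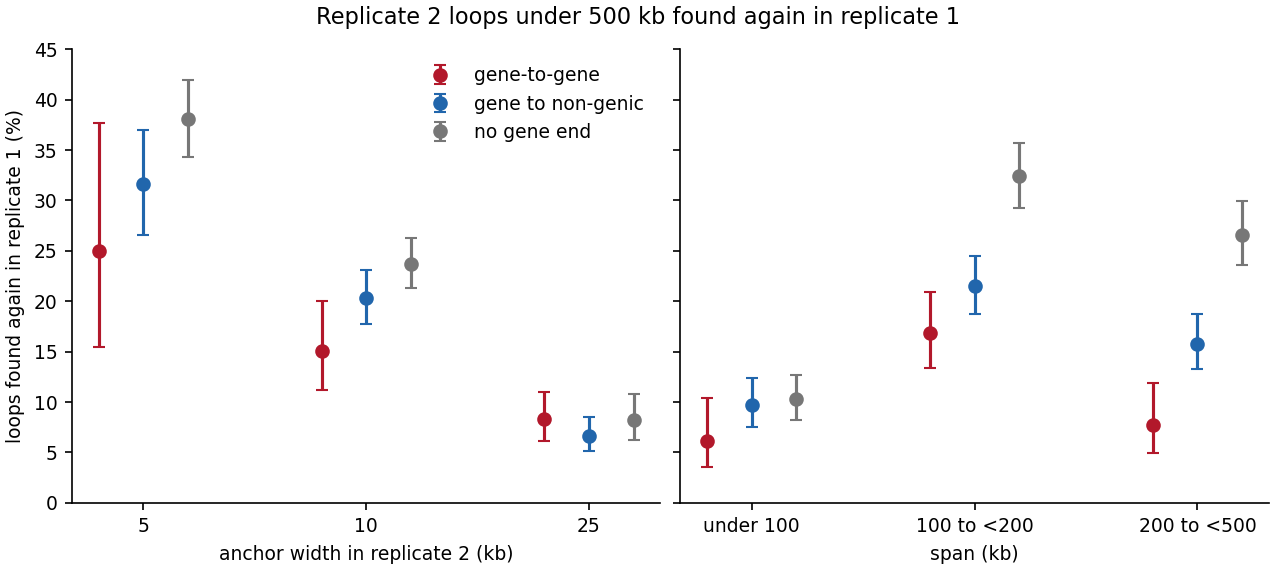
Share of replicate 2 loops under 500 kb found again in replicate 1, in percent, by anchor width (left) and span in kb (right); points are shares of each loop class and error bars are 95% Wilson intervals. Gene-to-gene loops had 25, 15.1 and 8.27% at 5, 10 and 25 kb, and 6.12, 16.8 and 7.73% in the 3 span ranges.

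The counterparts of found-again members mostly held gene ends in replicate 1 too, which the matching by position largely fixes. Of the 93 replicate 1 counterparts, 84 (90.3%) held a gene end at both of their own anchors, and 80 (86%) shared a gene with the member at both anchors. The anchors were identical in 42, which hold the same gene ends by construction. Where both replicates used 25 kb anchors, the 40 loops had n from 39 to 135 (median 85) in replicate 2 and from 17 to 47 (median 29) in replicate 1. All 40 were higher in replicate 2. The 5 loops on 10 kb anchors in both had n of 26 to 89 in replicate 2 and 13 to 26 in replicate 1, again higher in replicate 2 in 5 of 5. The depth behind the lists is unknown, and its part in this gap was not tested. Taken from replicate 1, the same rule gave 264 gene-to-gene loops among 1185 under 500 kb (22.3%), of which 224 (84.8%) had a counterpart in replicate 2, beside 730 of 921 other loops (79.3%). Of those 224 counterparts, which include narrower anchors, 82 (36.6%) held a gene end at both anchors in replicate 2.

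The found-again members of highest n joined genes of varied functions. On 10 kb anchors, Nhp2, which encodes a protein of the box H/ACA ribonucleoproteins, was joined to 0610009B22Rik over 70 kb with n = 89 in replicate 2 and 26 in replicate 1. Uchl5, a proteasome-bound deubiquitinase gene, was joined to Rgs2, a brake on G-protein signalling, over 190 kb with n = 51 and 17. Cnot10, a subunit gene of the CCR4-NOT deadenylase, was joined to Dync1li1, a dynein light intermediate chain gene, over 80 kb with n = 47 and 21. On 25 kb anchors in both replicates, Bbs10, a chaperonin-like gene, was joined to Nap1l1, a histone chaperone gene, over 175 kb with n = 135 and 47. Sap18, of a histone deacetylase complex, and Ska3, of the kinetochore, were joined to Micu2, a mitochondrial calcium uptake gene, over 100 kb with n = 129 and 36. The Ttc39b to Snapc3 loop had n = 139 on 25 kb anchors, and its replicate 1 counterpart lay on 10 kb anchors with n = 16. Each value was higher in replicate 2 where the widths were equal.

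Gene starts were more frequent than the far ends of genes at narrow anchors. The strand was known for 17274 of 21521 protein-coding genes, through the promoter table. Of 2023 gene ends of known strand at member anchors, 1051 were starts (52%, 49.8 to 54.1%), against 50% over all genes by construction. The share was 68.2% (58.9 to 76.3%) at 5 kb, 57% at 10 kb and 48.6% at 25 kb. At the genic anchors of loops with a gene end at 1 anchor it was 65.9, 57.1 and 48.4%, so the 2 classes had nearly the same shares at each width. Where an anchor held a single gene end, 75, 59.6 and 55.7% of the ends at member anchors were starts, beside 67.6, 58.2 and 50.8%.

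Where the arrangement could be read without ambiguity, start-to-start contacts were the most frequent on 5 and 10 kb anchors but not on 25 kb anchors. In 198 members each anchor held a single gene end of known strand and the genes differed. Of these, 84 (42.4%) joined a start to a start, 72 (36.4%) a start to a far end and 42 (21.2%) a far end to a far end. On 5 kb anchors the counts were 18, 9 and 1 of 28 members. On 10 kb anchors they were 39, 24 and 23 of 86, and on 25 kb anchors 27, 39 and 18 of 84. A start and a far end can pair in either order, so equal counts are not the baseline, and no chance share was computed. The order of the first and second arrangement thus turned between the narrowest and the widest anchors. Over all 804 members, 308 (38.3%) had a known gene start at both anchors and 187 (23.3%) at neither.

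**Figure D3:**
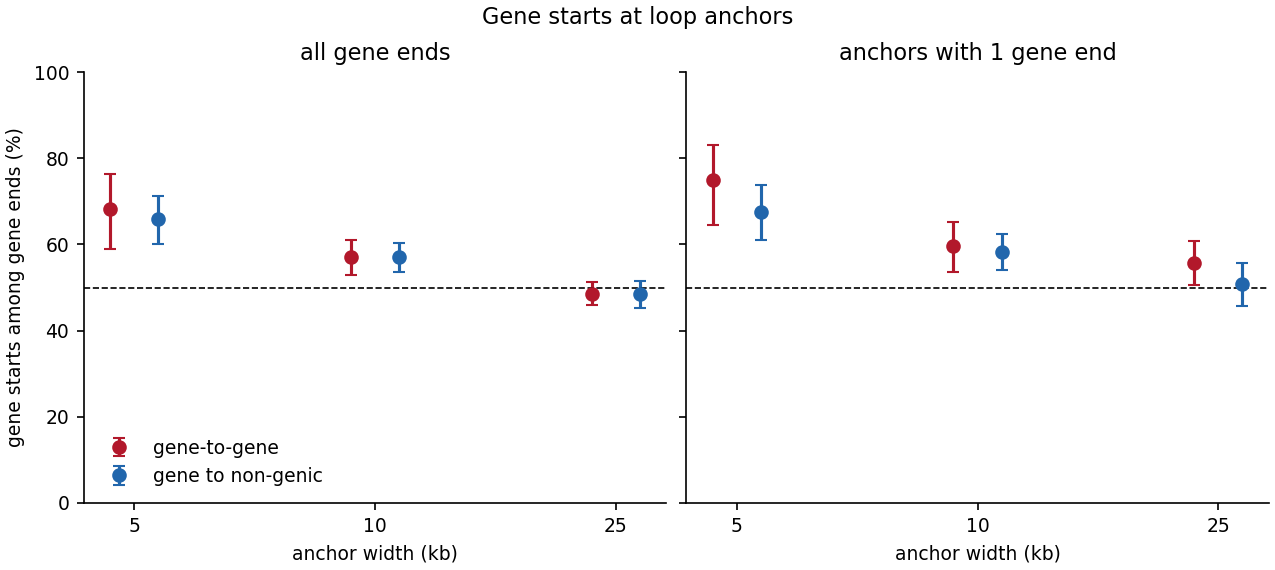
Share of gene ends at anchors that are gene starts, in percent, by anchor width, for gene-to-gene loops and for the genic anchors of loops with a gene end at 1 anchor (gene to non-genic), over all gene ends (left) and at anchors with 1 gene end (right); error bars are 95% Wilson intervals and the dashed line is 50%. Over all ends, for gene-to-gene loops the share was 68.2, 57 and 48.6% at 5, 10 and 25 kb.

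The ETS core was more frequent in promoters at gene-to-gene anchors than in promoters at large. ETS factors, the family of ETV6, bind DNA around a GGAA core, and CCGGAA is a common form of it in housekeeping promoters. In the window from 250 bases before to 50 bases after the start, it was present in 306 of 1017 promoters at these anchors (30.1%, 27.3 to 33%), beside 19.3 percent of all 17274 promoters. The 911 promoters found only at loops with a gene end at 1 anchor had 23.5% (20.9 to 26.4%). The GC box was present in 56.2% of members' promoters, beside 46.9 percent of all and 60.3% at the other genic anchors. The YY1 core was present in 7.87%, beside 6.40 percent of all and 5.93%, and the CTCF consensus in 1.47%, beside 0.550 percent of all and 0.878%.

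Base composition differed between these promoter sets. The median GC content of the 250 bases before the start was 58% at gene-to-gene anchors, 60% at the other genic anchors and 55.6% over all promoters, and its part in the motif shares was not tested. The differences between the shares were not tested either. Promoters of opposite strands can overlap and share a motif copy. The promoters counted are thus not all independent, which the intervals do not cover. Of 302 members with a promoter at both anchors, 40 (13.2%) had the ETS core at both and 121 (40.1%) the GC box at both. The YY1 core was at both in 1 member and the CTCF consensus in 0, which describes promoter windows and not whole anchors. The Acss2 and Gss windows printed above are a case with the ETS core on 1 side of the loop.

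Most genes took part in a single gene-to-gene loop. The members' 1563 distinct anchors held ends of 2088 genes, and 66.2% of the anchors held 1 gene. Of these genes, 1939 lay in 1 member, 146 in 2 and 3 in 3 members. The 3 were Castor1, a sensor gene of the mTORC1 pathway, Orc6, an origin recognition complex gene, and Golga5, a Golgi gene, named after their values were seen. In 311 members (38.7%) no protein-coding gene lay wholly between the anchors, the median was 1 such gene and the most 22. Genes that ran across an anchor were not counted. Olfactory and vomeronasal receptor genes were rarely at these anchors, with 19 of 1461 (1.3%), beside 9.70 percent of all 21521 protein-coding genes. Per 100 genes of a chromosome, there were between 1.97 members on the X chromosome and 5.16 on chromosomes 1 and 12.

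Some members joined the ends of 1 gene. There were 49 (6.09%), of which 20 had that gene alone at both anchors. Those of highest n, ranked over all widths, lay on 25 kb anchors, and the 6 given here spanned 100 kb. Kansl1l had n = 145 and Prkar2b, a regulatory subunit gene of protein kinase A, had 143. Tex2 and Hpcal1 each had 90, Larp1, whose product binds mRNAs of the translation machinery, had 88, and Kat2b, a histone acetyltransferase gene, had 86. Of these 6, Hpcal1 alone was found again, with n = 36 at the same width. The other found-again loops of this kind were chosen for mention after their values were seen. Phlpp1, which encodes a phosphatase of AKT, is 222.4 kb long and its ends were joined over 220 kb with n = 34 on 10 kb anchors, and n = 37 on 25 kb anchors in replicate 1. Pde9a, a cyclic GMP phosphodiesterase gene, had n = 84 and 29 on 25 kb anchors in both. The fourth joined the ends of Pcdhga1 and Pcdhga2 in the gamma protocadherin cluster, with n = 20 on 10 kb anchors, and n = 23 on 25 kb anchors in replicate 1. In all, 4 of the 49 were found again (8.16%), beside the 11.6% of all members.

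Another 35 members (4.35%) joined different genes of 1 symbol family, which are often tandem copies. Numbered Zfp zinc finger genes gave 6, olfactory receptor genes 5 and guanylate-binding protein genes 2. The 8 of highest n, ranked over all widths, lay on 25 kb anchors, the width on which n is highest. They joined the transglutaminase genes Tgm3 and Tgm6 (n = 85), the phospholipid scramblase genes Plscr5 and Plscr4 (85), Zfp945 and Zfp40 (83), and Gimap8 to Gimap3 and Gimap5, lymphocyte GTPase genes (82). The other 4 joined Olfr1414 to Olfr12 and Olfr1410 (78), the fatty acid binding protein genes Fabp5 and Fabp12 (77), Olfr1396 to Olfr1393 (76) and Olfr1358 to Olfr1357 (68). None of these 8 was found again in replicate 1, beside 7.52 percent of all loops under 500 kb on 25 kb anchors.

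The 3 family loops that were found again all joined immune genes on 10 kb anchors, an observation made after their values were seen. Ccl7 and Ccl1, genes of chemokines that attract monocytes and T cells, were joined over 130 kb with n = 46 in replicate 2, and n = 43 on 25 kb anchors in replicate 1. Gbp5 and Gbp2, interferon-inducible GTPase genes, were joined over 130 kb with n = 43, and n = 45 on 25 kb anchors in replicate 1. Cxcl3 and Cxcl2 were the third pair. Found again here means midpoints within 20 kb and not the same genes. The right anchor of the Cxcl counterpart in replicate 1 ended before Cxcl2. The left anchor of the Ccl counterpart did not overlap the member's anchor with the Ccl7 end. A second loop from the same Gbp5 anchor reached Gbp3 over 70 kb with n = 51 and was not found again. Each anchor of these Gbp and Cxcl loops held a gene start, and every gene ran in the same direction.

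Genes of the inflammatory and interferon lists, the subject of the series' title, numbered 8 of 56 and 7 of 48 at gene-to-gene anchors, 14.3 and 14.6%, beside the 9.70 percent of all genes. Of the 12 lists, only lymphoid genes (6.25%) and cell cycle regulators (3.33%) lay below the share of all genes. Some genes shared a loop, as Aim2 and Ifi204, Cxcl3 and Cxcl2, and Gbp5 with Gbp2 and Gbp3 did. The counts are thus not of separate contacts. Among TNF and NF-kB response genes, Ripk2, a kinase gene of NOD receptor signalling, was joined to Nbn and Osgin2 over 175 kb with n = 112. The chemokine gene Ccl9 was joined to Wfdc21 over 175 kb with n = 96, and the adhesion gene Icam1 to Tyk2, a kinase gene of cytokine receptors, and Cdc37 over 100 kb with n = 71, all on 25 kb anchors. On 10 kb anchors, Cd69, an early activation gene, was joined to the C-type lectin gene Clec2m over 60 kb with n = 62. Also on 10 kb anchors, Socs3, a brake on cytokine signalling, was joined to Tha1 over 90 kb with n = 24, and on 5 kb anchors the AP-1 gene Fosb to the DNA repair gene Ercc1 over 40 kb with n = 33. Of these 8 genes, Cxcl3 and Cxcl2 lay at a found-again member, whose replicate 1 counterpart did not reach Cxcl2. The starts of Cxcl3 and Cxcl2 lay at the member's anchors. Ccl9, Icam1, Fosb and Socs3 had the far end at the anchor and not the start, and the strand of Ripk2 and Cd69 was unknown. Among interferon genes, Irf7, the regulator of type I interferon genes, was joined to Eps8l2 over 100 kb with n = 93 on 25 kb anchors. Dhx58, an RNA sensor gene, was joined to Nkiras2 and its neighbours over 80 kb with n = 24 on 10 kb anchors. Aim2, a DNA sensor gene, and Ifi206 were joined to Ifi204 and Ifi207 over 275 kb with n = 48 on 25 kb anchors, and this loop was not found again. Irf7 had its start at the anchor, Aim2 its far end alone, and the strand of Dhx58 and Ifi204 was unknown.

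Stem and progenitor regulators numbered 5 of 40 at these anchors (12.5%), beside 9.70 percent of all genes. None of the 5 lay at a found-again member, where 11.6% of all members were found again. Spi1, the gene of the ETS factor PU.1, shared a 25 kb anchor with Mybpc3 and was joined to Ddb2, Acp2 and Nr1h3 over 100 kb with n = 88. Lmo2, a gene of a bridging factor of blood stem cell regulators, was joined to Caprin1 and Nat10 over 225 kb with n = 78, also on 25 kb anchors. Cebpa and its relative Cebpg, genes of basic leucine zipper factors, were joined over 70 kb with n = 31 on 10 kb anchors. Zfpm1, the gene of a GATA1 partner, was joined to Zfp469 over 60 kb with n = 20 on 10 kb anchors. Hoxa9 and 4 other Hoxa genes shared a 25 kb anchor that was joined to each end of Skap2, an adaptor gene, over 200 kb (n = 59) and 350 kb (n = 50). Those 5 made up all 5 of 39 Hox genes at members' anchors (12.8%). Of the stem and progenitor regulators, Cebpa, Zfpm1 and Hoxa9 had the far end at the anchor and not the start. The strand of Spi1 and Lmo2 was unknown. Etv6 itself was at the anchors of 0 members.

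Blood lineage genes gave single contacts. Of 30 myeloid genes 5 were at member anchors (16.7%), beside 9.70 percent of all genes. Itgam, the CD11b gene, was joined to Pycard, the inflammasome adaptor gene, over 70 kb with n = 49 on 10 kb anchors. Fcgr1, an Fc receptor gene, was joined to BC107364 over 150 kb with n = 38, and n = 40 on 25 kb anchors in replicate 1, the found-again loop of this list. Itgam and Fcer1g had the start at the anchor, Fcgr1 and Cd300a the far end alone, and the strand of Csf1r was unknown. Of 28 erythroid and megakaryocytic genes 3 were at member anchors (10.7%). Hba-a1 and its neighbours were joined to Il9r (n = 58 on 25 kb anchors). Tfrc, the transferrin receptor gene, was joined to Tnk2 (n = 46 on 10 kb anchors). Mpig6b was joined to Vars and Vwa7 (n = 27 on 10 kb anchors). Hba-a1 and Mpig6b had the start at the anchor and Tfrc the far end alone. Of 32 lymphoid genes there were 2 (6.25%). Eomes, a T-box factor gene, was joined to Azi2 and Cmc1 over 425 kb with n = 76 in replicate 2 and 25 in replicate 1, both on 25 kb anchors. Cd28, a T cell costimulator gene, was joined to Raph1 with n = 120 on 25 kb anchors. The start of Eomes lay at its anchor, and the strand of Cd28 was unknown. Of 29 cytokine receptor and signalling genes there were 3 (10.3%), among them Il6ra, whose own ends were joined over 50 kb with n = 32 on 10 kb anchors. From replicate 1 alone, the myeloid, erythroid, lymphoid and cytokine receptor lists had 10, 7.14, 9.38 and 0%, beside 3.4% of all genes.

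Genes with general functions were at these anchors as well. Of 21 cohesin, CTCF and loop factor genes 4 were (19%), beside 9.70 percent of all genes. The high setting had 0 of them and replicate 1 alone had 1 (4.76%), and with gene ends within 5 kb the share was 19% beside 18.1% of all genes. Mau2, a cohesin loader gene, was joined to Gatad2a, Ndufa13 and Tssk6 over 100 kb with n = 76 and 30 in the replicates. Yy1 was joined to Wars and Wdr25 (n = 76), Rad21, a cohesin subunit gene, to Eif3h (n = 55), and Esco1, a cohesin acetyltransferase gene, to Abhd3 (n = 106), all on 25 kb anchors. Yy1 had its start at the anchor, Mau2 its far end alone, and the strand of Rad21 and Esco1 was unknown. Of 61 cytosolic ribosomal protein genes 9 were (14.8%), with n from 43 to 106 on 10 or 25 kb anchors. Of these 9, Rpl6, joined to Naa25 and Trafd1 over 175 kb, was found again, with n = 62 and 20. Of 30 cell cycle regulators 1 was (3.33%), the replication helicase gene Mcm5, joined to Tom1 over 35 kb with n = 24 on 5 kb anchors. Of 40 genes of non-haematopoietic tissues 4 were (10%), namely Alb, Afp, Ins2 and Cdh1, each on 25 kb anchors. The lists hold 21 to 61 genes each and were not tested against other genes.

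**Figure D4:**
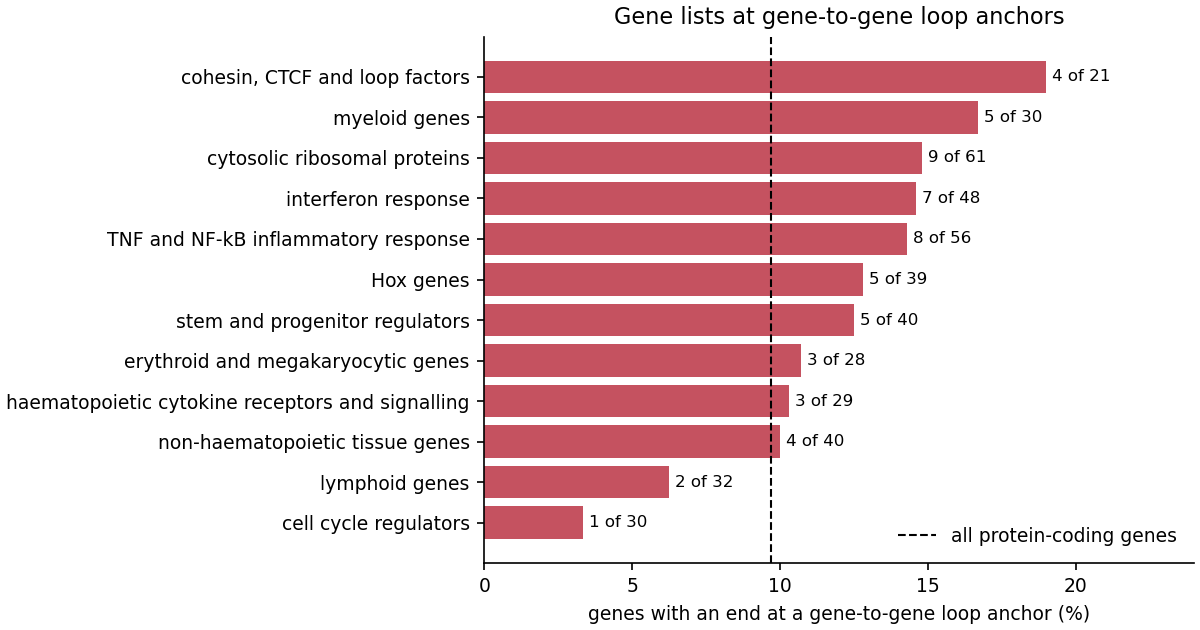
Share of each gene list at anchors of gene-to-gene loops, in percent (bars, with the counts beside them), and the share of all protein-coding genes (9.70 percent) as a dashed line. The shares ran from 1 of 30 cell cycle regulators (3.33%) to 4 of 21 loop factor genes (19%). With the rule applied to replicate 1, these lists had 10 and 4.76%, beside 3.4% of all genes.

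Neighbouring members seldom joined into larger structures. Of the 804 members 642 (79.9%) had no anchor overlapping that of another, 66 chains had 2 members and 10 had 3. The 10 chains of 3 covered 250 to 515 kb, and 2 of them held a found-again member. The longest, of 515 kb, lay on chromosome 1. In it Psen2, the presenilin 2 gene, was joined to Itpkb, an inositol kinase gene, with n = 29 on 10 kb anchors, the ends of Stum to each other with n = 35 on 10 kb anchors, and Stum to Acbd3 over 325 kb with n = 52 on 25 kb anchors. The first of these was found again in replicate 1. Of the first 5 by chromosome, the others, at Sesn2, Med18, Phactr4 and Taf12 on chromosome 4, at Rab6b, Topbp1, Srprb, Trf and Cdv3 on chromosome 9, at Mybbp1a and its neighbours on chromosome 11 and at E2f6, Greb1, Rock2 and Pdia6 on chromosome 12, had 0 found-again members. The second chain with a found-again member, named after its values were seen, was that of Sap18, Ska3, Micu2 and Lats2 on chromosome 14.

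**Figure D5:**
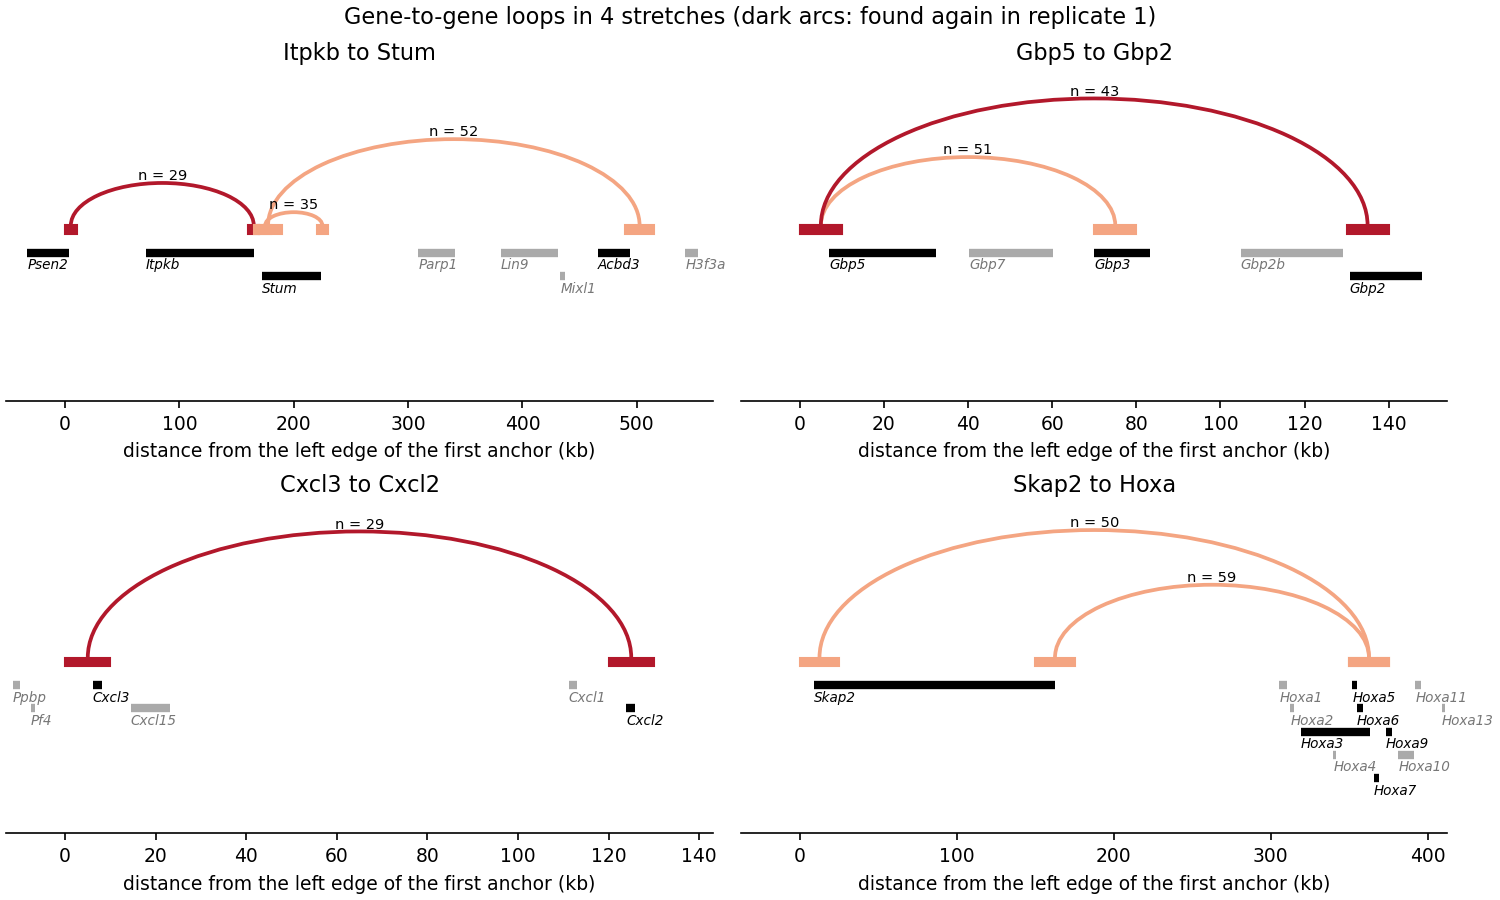
Maps of 4 stretches with gene-to-gene loops (Itpkb to Stum, Gbp5 to Gbp2, Cxcl3 to Cxcl2 and Skap2 to Hoxa); the horizontal axis is the distance in kb from the start of the first anchor, arcs are loops with their replicate 2 n, dark where found again in replicate 1, and bars are genes, black where a gene end lies at an anchor. The Gbp5 anchor has arcs of 51 and 43, and the Cxcl loop one of 29.

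Gene-to-gene loops matched called domains less often than the other loops did. A loop matched when its anchor midpoints lay within 25 kb of the borders of 1 of the 339 domains of replicate 2. This held for 5 of 804 members (0.622%), beside 2.71 percent of all loops under 500 kb, 52 loops with a gene end at 1 anchor (2.58%) and 82 with none (3.57%). With width as stratum the odds ratios were 0.256 (0.0791 to 0.646, exact conditional test, adjusted p = 0.00106) and 0.201 (0.0621 to 0.506, exact test, adjusted p = 1.11e-04). With width and span class as strata they were 0.343 (0.105 to 0.883, exact test, adjusted p = 0.0226) and 0.306 (0.0921 to 0.797, exact test, adjusted p = 0.0176). The test was added after the counts were seen and covers counting error within 1 replicate. From 200 to under 500 kb, where most matches lay, 1.72% of members matched, against 5.76 and 8.79% of the other classes.

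Of the 5 matching members, 3 joined Fam174a to St8sia4, a polysialyltransferase gene (350 kb, n = 83), Ptpa, a phosphatase activator gene, to 1700001O22Rik (350 kb, n = 70), and Skap2 to the Hoxa genes (350 kb, n = 50), all on 25 kb anchors. On 10 kb anchors the other 2 joined Stmnd1 to Fam8a1 (360 kb, n = 25) and Prr13 to Atf7, Npff and Tarbp2 (60 kb, n = 36). All 5 are named, after their values were seen. The Stmnd1 to Fam8a1 loop was the one of them found again, with n = 29 on 25 kb anchors in replicate 1.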

How the data were processed

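Hi-C loops and domains of 2 HPC5 samples were taken as deposited. Formaldehyde-fixed cells went through the Arima kit, per the labels' protocols. HiC-Pro 2.11.1 and mm10 stand in the submitters' processing notes. Not given in the sources used here are the callers of loops and domains and the meanings of the tags n and qBL. The lists give no contact totals, so depth is unknown. Each list belongs to 1 replicate.

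Anchors were read from each deposited loop, with coordinates as deposited. Genes came from RefSeq GRCm38.p6, without 110 protein-coding genes of scaffolds. Strand came from the promoter table by matching positions and covers 80.3% of the genes used. Loops were found again when both midpoints lay within 20 kb of a replicate 1 loop, a tolerance below a 25 kb bin, so shares differ between widths by construction. Shares carry 95% Wilson intervals, which cover counting error only.

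Classes were compared with exact conditional tests of a common odds ratio over anchor widths (R 4.3.3), alternatively over widths and span classes cut at 100 and 200 kb, and with Fisher's exact test within widths, with Benjamini-Hochberg adjustment and a threshold of 0.05. Python 3.11.15, scipy 1.17.1, numpy 2.4.6 and matplotlib 3.10.9 were used. The scripts were tested on simulated data. A family is the run of at least 3 letters before the first digit of a symbol, without Gm, LOC and Rik names, so families with shorter runs, such as Cd300 or S100, are not counted. Ties in span were named in chromosome order.

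Named by rule were the 3 found-again loops of highest n per width, the 5 shortest and 5 longest, the 8 of highest n joining 1 gene or 1 family, the first 5 by chromosome of the chains with most members, pairs within a gene list, up to 6 genes per list, Etv6, and the promoters of 4 found-again loops. Of 460 entries in 12 gene lists, 454 matched. The members and the lists were chosen with earlier results of these data known. Alternatives were other matching distances, anchor overlap, the high setting, autosomes, all annotated genes, gene ends within 5 kb, gene bodies, spans under 250 kb and strata of n. Some loops that this rule would name are not reported here. Contact matrices and genome sequence beyond promoters were not used here.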

Additional observations from a re-analysis of the deposited data

How the results depend on the processing

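Matching within 10 or 50 kb gave 9.08 and 15.8% of members found again. The lower share against loops without gene ends kept its direction in the alternatives that pool the widths, with odds ratios from 0.65 to 0.92, but within 25 kb anchors, which hold 496 of the members, the odds ratio was 1.01 (Fisher's exact test, adjusted p = 1). The pooled difference no longer passed the threshold with strata of width and span (0.92, exact test, adjusted p = 0.728), in the high setting (0.717, exact test, adjusted p = 0.44) or with all annotated genes (0.789, exact test, adjusted p = 0.0661). Against loops with a gene end at 1 anchor, no alternative passed it. The number of members depended on the definition: 1489 with gene ends within 5 kb, 1455 with all annotated genes, 2477 with gene bodies, 308 in the high setting and 264 from replicate 1 alone. Loops joining 1 gene then numbered 135 with ends within 5 kb, 22 in the high setting and 10 from replicate 1, family loops 72, 15 and 6 (23 without the numbered Zfp, Olfr and similar catalogue names), and genes at anchors 3901, 767 and 731. Domain matches were 3 within 10 kb and 11 within 50 kb of the borders. Shares of the gene lists moved with the definition: with ends within 5 kb, in the high setting and from replicate 1, TNF and NF-kB genes had 25, 8.93 and 8.93%, interferon genes 25, 8.33 and 6.25%, loop factor genes 19, 0 and 4.76% and cell cycle regulators 10, 3.33 and 10%, beside 18.1, 3.56 and 3.4% of all genes. The share of gene starts was 68.2% on 5 kb anchors and 59.3% at anchors with 1 gene end. In the 250 bases before the start alone, the ETS core, GC box and YY1 core were present in 23.5, 51.5 and 4.92% of members' promoters, beside 15.4, 43.2 and 4.12% of all promoters. At the 114 promoters of found-again members, the ETS core, GC box, YY1 core and CTCF consensus were present in 31.6, 58.8, 5.26 (2.43 to 11) and 0% (0 to 3.26), beside 19.3, 46.9, 6.40 and 0.550 percent of all promoters in the full window. These promoter settings were chosen after seeing the data. The causes were not tested, beyond fewer or more genes and loops entering by construction. No paired analysis was possible because the samples form 1 group. Without replicate 1 nothing can be found again, and the unknown depth limits what either list could contain.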

Other observations

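Immune genes outside the inflammatory and interferon lists also lay at both anchors of gene-to-gene loops, as seen after the values were examined. Parp14 and Parp9, genes of interferon-inducible ADP-ribosyltransferases, were joined over 60 kb with n = 63 on 10 kb anchors. Ifitm2 and Ifitm3, genes of membrane proteins that restrict viral entry, were joined over 50 kb with n = 30 on 5 kb anchors. Trim6 was joined to Trim12a over 100 kb with n = 62, and Cd300a and Cd300lb to Cd300e, all myeloid receptor genes, over 150 kb with n = 68, both on 25 kb anchors. None of these 4 loops was found again in replicate 1.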
